A study of Malus domestica with 99 samples.

Results

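The genes F3H, MdF3H, DFR and LAR1 encode enzymes of the flavonoid pathway, and their transcripts were followed in apple fruit cortex after harvest. They were chosen by RefSeq gene symbol or synonym, which picked 4 transcript entries of the 55627 in the tables, with 1 entry for each gene. The fruit came from the cultivars Golden Delicious, Granny Smith and Fuji of Malus domestica. Treated fruit was closed in a sealed container overnight with 1-methylcyclopropene (1-MCP), a gas that blocks ethylene receptors, and was sampled at day 1, 7, 14 and 21 and at 2 months. Control fruit was sampled at the same times, and untreated fruit at harvest, which makes 11 groups per cultivar. The labels list 3 libraries per group, 99 in all, and they give no age, orchard or storage condition. All fruit of a cultivar is treated here as 1 lot, since nothing in the labels separates lots, and tissue was labelled as cortex without skin or seed being named.

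Flavonoids are plant phenolics built from phenylpropanoid and malonyl units. Flavanone 3-hydroxylase, the enzyme of F3H and MdF3H, makes dihydroflavonols from flavanones. Dihydroflavonol 4-reductase, the enzyme of DFR, turns dihydroflavonols into leucoanthocyanidins. Leucoanthocyanidin reductase, the enzyme of LAR1, diverts these to catechin, a building block of the tannins known as proanthocyanidins, while anthocyanidin synthase leads to the red anthocyanins of apple skin. Apple flesh is known for its catechins and proanthocyanidins.

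At days 7, 14 and 21, F3H was lower in fruit given 1-MCP than in its control in each of the 3 cultivars. In the mean over cultivars it was higher at 2 months than at harvest in control fruit and, by a smaller difference, in 1-MCP fruit. Treated and control fruit were not called as different in F3H at 2 months. MdF3H was higher in 1-MCP fruit at days 7, 14 and 21 in both cultivars analysed. DFR was higher in 1-MCP fruit of Granny Smith, and LAR1 was lower in 1-MCP fruit of Golden Delicious and higher in 1-MCP fruit of Granny Smith. F3H was analysed in all 3 cultivars, while MdF3H, DFR and LAR1 were analysed in Golden Delicious and Granny Smith and not in Fuji.

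Each value is the authors' group mean on the log2 scale, so 1 unit is a doubling, and -1 is the floor at which a group is listed when every library held 0. No spread between replicate fruit can be had from group means, and the depth of the libraries is unknown. Of 33 columns, 2 are means of 2 libraries, which are the Fuji columns of control fruit at day 14 and of 1-MCP fruit at 2 months, and the other 31 are means of 3. A gene is called here when its Benjamini-Hochberg adjusted p from limma, taken over all entries tested, was under 0.05. The unit of these tests is the cultivar or the day, so p weighs a difference against its spread between cultivars or days and not between fruit. The standard error (SE) is the ordinary one, whereas p uses the variance that limma moderates across entries. Levels were not compared between genes, because the values are not clearly scaled to transcript length. The fruit markers ACO1 (5.04 to 16.12) and MALD1 (4.65 to 13.99) were above the floor in all 33 columns, and PG1 (0.94 to 13.14) in its 22, whereas no marker of skin, seed or green plastids could be checked.

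**Figure D1:**
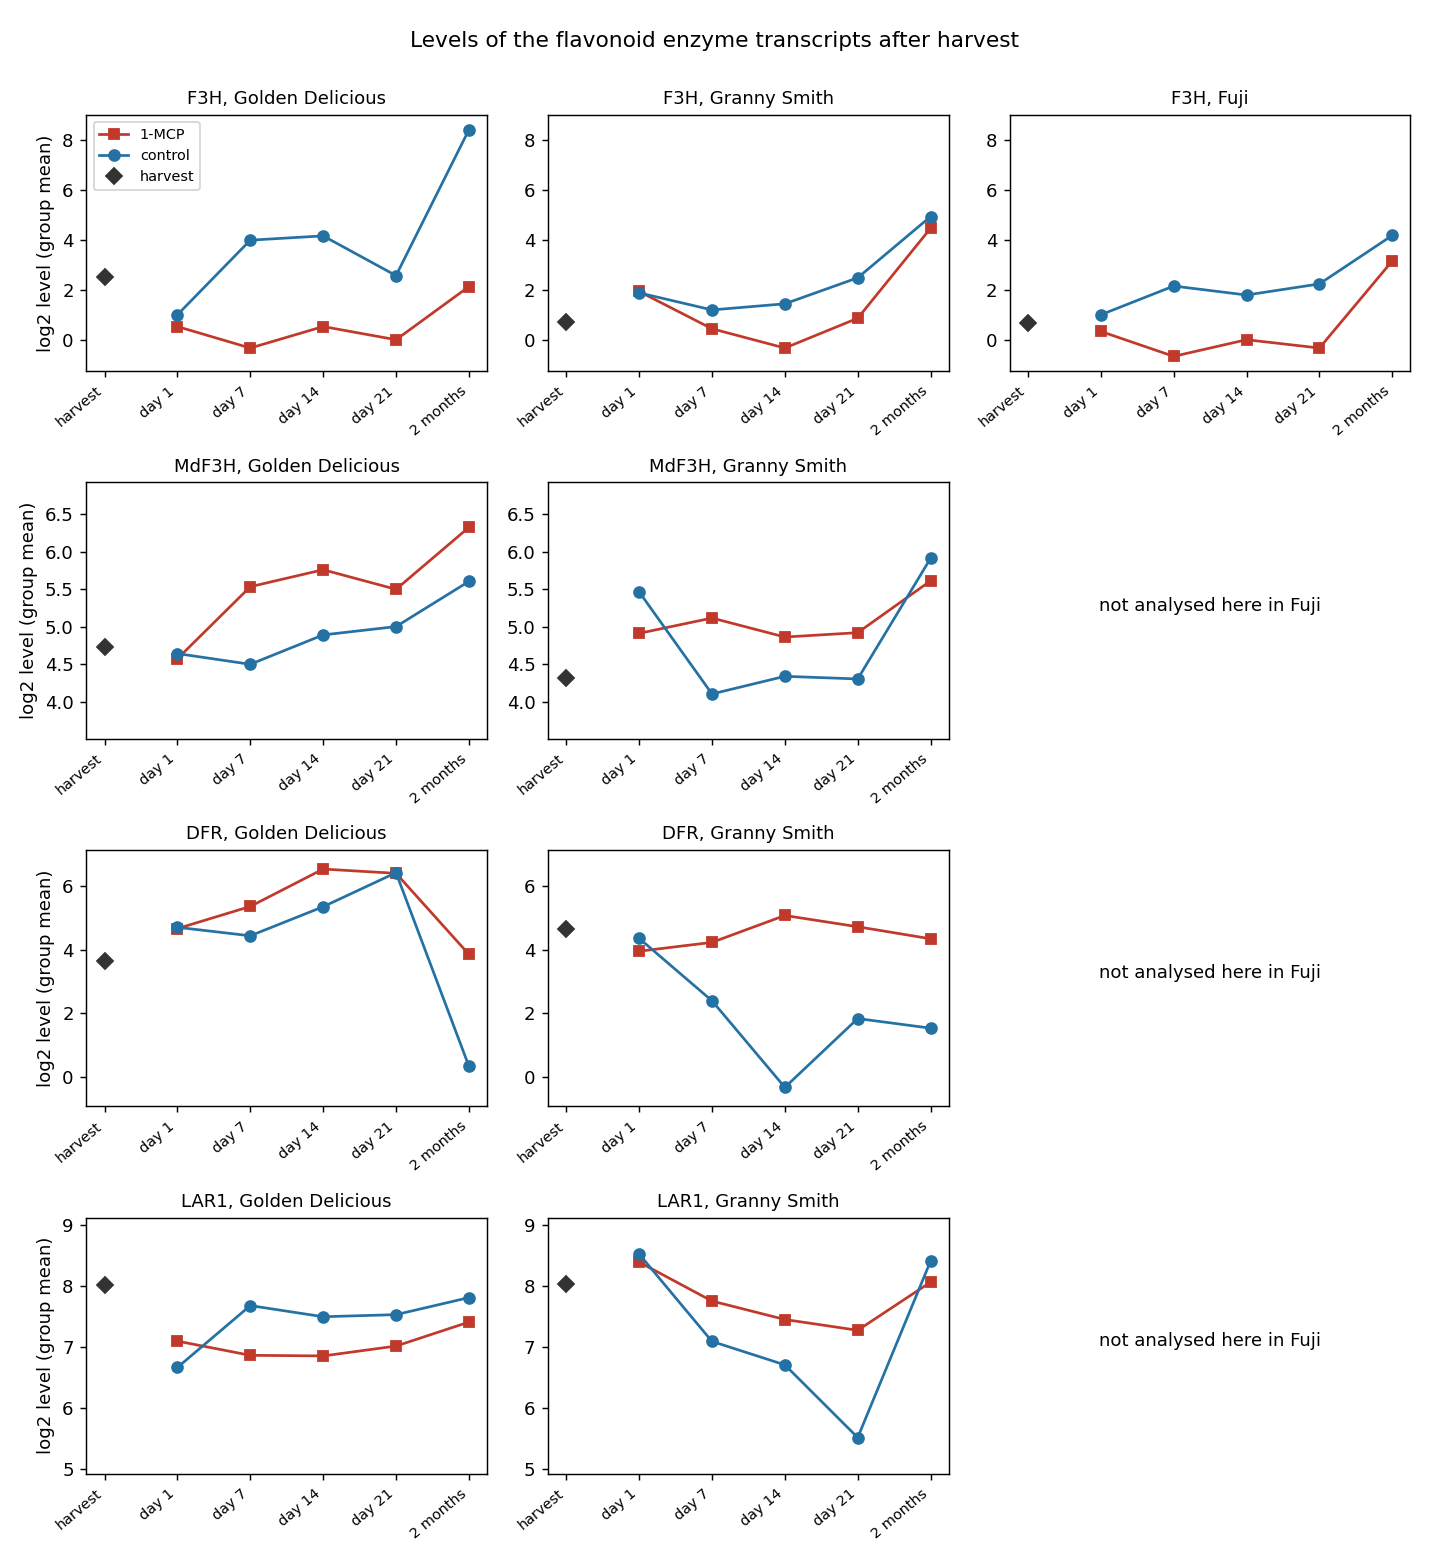
Log2 level (vertical axis) of F3H, MdF3H, DFR and LAR1 against sampling time (horizontal axis), with 1 point per group mean in 1-MCP and control fruit of each cultivar and no error bars, because the tables hold group means. F3H of control fruit lies above F3H of 1-MCP fruit at days 7, 14 and 21 in every cultivar.

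F3H (NM_001293925, locus LOC103400025, also named FHT) stood at log2 2.497 at harvest in Golden Delicious, against 0.72 for Granny Smith and 0.67 for Fuji. In Golden Delicious its levels at day 1, 7, 14 and 21 and at 2 months were 0.53, -0.33, 0.53, 0.00 and 2.13 in 1-MCP fruit, against 1.00, 3.99, 4.16, 2.57 and 8.42 in control fruit. The control value at 2 months was the highest of all 33, and the treated fruit had by then come back to about its harvest level.

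In Granny Smith the same times gave F3H levels of 1.94, 0.44, -0.33, 0.86 and 4.47 in 1-MCP fruit, against 1.88, 1.20, 1.44, 2.48 and 4.94 in control fruit. In Fuji they were 0.33, -0.67, 0.00, -0.33 and 3.16 in 1-MCP fruit, against 1.00, 2.15, 1.79, 2.24 and 4.18 in control fruit. Over days 7, 14 and 21 the 9 columns of 1-MCP fruit (-0.67 to 0.86) lay below the 9 columns of control fruit (1.20 to 4.16) without overlap. The share of all entries that separate in this way was not computed, for F3H or for the members below. Separation of the columns is therefore not read as particular to these genes. Many of the treated values lie close to the floor, so the size of the difference depends on how low values are handled.

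The mean difference of F3H over days 7, 14 and 21 was -2.43 (1-MCP minus control, SE 0.614, n = 3 cultivars, adjusted p = 0.0209 by limma). In the same test 34.4% of the 20999 entries with values in 3 cultivars were called, 15.8% as lower, and the median of all entries was 0.03. The call was lost without Golden Delicious (-1.89, adjusted p = 0.0577), without Fuji (-2.45, adjusted p = 0.103) and with 4 added to the linear values (-0.98, adjusted p = 0.0521).

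Within each cultivar F3H was also lower in 1-MCP fruit than in control fruit, with days 7, 14 and 21 as the 3 units. Golden Delicious had a difference of -3.51 (SE 0.510, adjusted p = 0.00301 by limma) and Granny Smith one of -1.38 (SE 0.318, adjusted p = 0.0361 by limma). For Fuji it was -2.39 (SE 0.310, adjusted p = 0.00197 by limma). Of all entries, 42.1% were called within Golden Delicious, 39.4% within Granny Smith and 44.2% within Fuji. The Granny Smith call was lost without day 14 (adjusted p = 0.208) or day 21 (0.152), with 4 added (-0.48, 0.0718), with a stricter filter (0.0519) and with none (0.102). The Golden Delicious call was lost without day 14 (0.0656) and without the filter (0.0571). The 1-MCP effect on F3H differed by -2.13 between Golden Delicious and Granny Smith (SE 0.769, adjusted p = 0.129 by limma). It differed by 1.12 between Fuji and Golden Delicious (adjusted p = 0.257) and by -1.01 between Fuji and Granny Smith (adjusted p = 0.350). None of these differences was called, against 4.01%, 7.57% and 6.79% of entries in the same 3 tests.

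MdF3H (NM_001293954, locus LOC103436139), the other flavanone 3-hydroxylase entry, stood at log2 4.73 at harvest in Golden Delicious and 4.32 in Granny Smith. In Golden Delicious it measured 4.57, 5.53, 5.76, 5.50 and 6.33 in 1-MCP fruit from day 1 to 2 months, against 4.64, 4.50, 4.89, 5.001 and 5.60 in control fruit. In Granny Smith it measured 4.91, 5.12, 4.86, 4.92 and 5.61 in 1-MCP fruit, against 5.47, 4.10, 4.34, 4.30 and 5.91 in control fruit. At days 7, 14 and 21 all treated values lay above all control values of the same cultivar, while at day 1 both cultivars had the lower value in 1-MCP fruit.

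For entries analysed in 2 cultivars, a call required the same sign and an adjusted p under 0.05 in both, a rule that called 26.4% of 21397 entries, 14.5% as higher. MdF3H met it, and was 0.80 higher than control (SE 0.159, adjusted p = 0.0128 by limma) in Golden Delicious and 0.72 higher in Granny Smith (SE 0.15, adjusted p = 0.0213 by limma). With the cultivars as the unit, as in the test of F3H, the mean difference of 0.76 missed the threshold (SE 0.0413, n = 2 cultivars, adjusted p = 0.0539 by limma), in a test that called 16.1% of these entries. The difference of the effect between the cultivars was 0.08 (SE 0.138, adjusted p = 0.865 by limma). The call was lost without the filter on low values (adjusted p = 0.0793 and 0.0919). Leaving out day 7, 14 or 21 also ended it in Granny Smith (adjusted p = 0.0551 to 0.0987), as did leaving out day 14 in Golden Delicious (0.125). F3H and MdF3H thus had differences of opposite sign over these days. Without their sequences it was not tested how far reads can be shared between these entries.

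**Figure D2:**
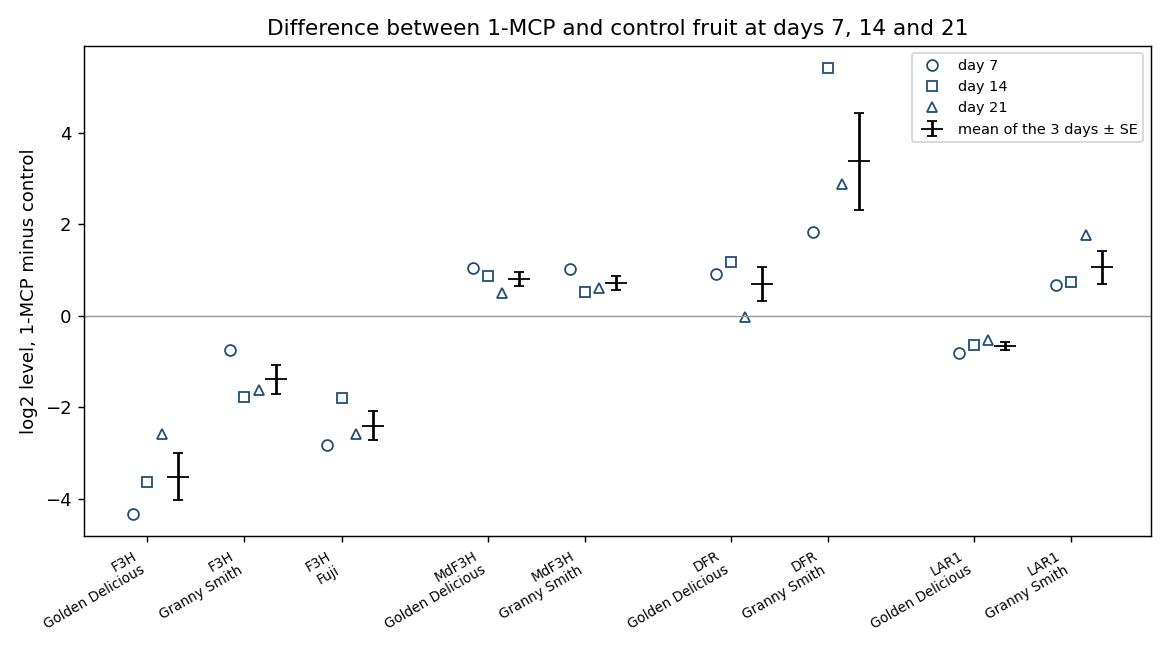
Difference in log2 level, 1-MCP minus control (vertical axis), at days 7, 14 and 21 in each cultivar (horizontal axis), with 1 open symbol per day, a bar for the mean of the 3 days ± SE and a line at 0. The points of LAR1 lie below 0 in Golden Delicious (-0.82 to -0.52) and above 0 in Granny Smith (0.66 to 1.76).

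DFR (NM_001293939, locus LOC103450464) stood at log2 3.66 at harvest in Golden Delicious and 4.66 in Granny Smith. In Golden Delicious it measured 4.66, 5.36, 6.53, 6.40 and 3.85 in 1-MCP fruit from day 1 to 2 months, against 4.70, 4.43, 5.35, 6.42 and 0.33 in control fruit. In Granny Smith it measured 3.95, 4.23, 5.07, 4.72 and 4.34 in 1-MCP fruit, against 4.35, 2.39, -0.33, 1.83 and 1.53 in control fruit. Treated and control values of days 7, 14 and 21 overlapped in Golden Delicious and did not in Granny Smith, where control fruit at day 14 came near the floor.

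The mean difference of DFR over these days was 0.70 in Golden Delicious (SE 0.366, adjusted p = 0.0993 by limma) and 3.38 in Granny Smith (SE 1.06, adjusted p = 0.0158 by limma). DFR was therefore not called by the rule of both cultivars, nor with the cultivars as the unit (2.04, adjusted p = 0.145 by limma). In a fit over all columns, with additive terms for cultivar and for group (harvest, or time and treatment), it passed the threshold narrowly (2.04, adjusted p = 0.0493 by limma). That additive fit called 46.6% of entries with 2 cultivars. Without day 21, when the Golden Delicious values differed by -0.02, the Golden Delicious difference was 1.05 (adjusted p = 0.0359), and the Granny Smith call was then lost (3.62, adjusted p = 0.0527), as it was without the filter (0.146) and without the trend and robust options (0.0529). The difference of the effect, Golden Delicious minus Granny Smith, was -2.68 (SE 0.962, adjusted p = 0.0779 by limma), which was not called.

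LAR1 (NM_001294114) stood at log2 8.02 at harvest in Golden Delicious and 8.04 in Granny Smith. In Golden Delicious it measured 7.10, 6.86, 6.85, 7.01 and 7.41 in 1-MCP fruit from day 1 to 2 months, against 6.66, 7.68, 7.496, 7.53 and 7.81 in control fruit. In Granny Smith it measured 8.40, 7.75, 7.45, 7.27 and 8.07 in 1-MCP fruit, against 8.53, 7.09, 6.70, 5.51 and 8.41 in control fruit. The groups did not overlap at days 7, 14 and 21 in either cultivar, but they were ordered the opposite way round.

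LAR1 was 0.66 lower than control in 1-MCP fruit of Golden Delicious (SE 0.0872, adjusted p = 0.00414 by limma). It was 1.06 higher than control in that of Granny Smith (SE 0.354, adjusted p = 0.0167 by limma), where treated and control levels both lay below harvest. The difference of the effect, Golden Delicious minus Granny Smith, was -1.72 (SE 0.283, adjusted p = 0.0126 by limma over days 7, 14 and 21), in a test that called 4.01% of 42396 entries. LAR1 was the 1 member called of 4, and 3 had an unadjusted p under 0.05, as had 21.6% of all entries. This call depends on a choice made after a first form of the fit had been seen, which set the variance trend of limma on the mean difference rather than on the mean level. With that first form the adjusted p was 0.352, and that of the Granny Smith effect was 0.0547. The call was also lost without the filter (0.178), without day 14 (0.20) and without the trend and robust options (0.108). The same 3 settings ended the call of the Granny Smith effect (0.159, 0.0718 and 0.0657), and the first 2 of them that of the Golden Delicious effect (0.0526 and 0.0758).

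At day 1, before these differences, none of the 4 members was called between 1-MCP and control fruit by limma over cultivars, and none had an unadjusted p under 0.05. The mean differences were -0.36 for F3H, -0.31 for MdF3H, -0.22 for DFR and 0.15 for LAR1. At that time 8.57% of entries with 3 cultivars and 4.58% of those with 2 were called. Single days were tested afterwards as an addition, and F3H was lower at day 7 (-2.63, adjusted p = 0.0434 by limma), day 14 (-2.40, adjusted p = 0.0310) and day 21 (-2.26, adjusted p = 0.0283). MdF3H was higher at day 7 (1.03, adjusted p = 0.0310 by limma) and missed the threshold at day 14 (0.70, adjusted p = 0.156) and day 21 (0.56, adjusted p = 0.242). The single-day calls of F3H were lost without Golden Delicious, without Fuji, without the filter and without the trend and robust options (adjusted p = 0.0516 to 0.207). With 4 added they were lost at day 7 (0.0916) and day 14 (0.0932), without Granny Smith at day 14 (0.0808) and day 21 (0.0667), and with the trend on the mean difference at all 3 days (0.0799 to 0.121). The day 7 call of MdF3H was lost with that trend (0.191), without the filter (0.147) and without the trend and robust options (0.114). In the tests of single days, 30.8%, 24.7% and 16.6% of entries with 3 cultivars were called at day 7, 14 and 21, and 16.5%, 6.43% and 2.52% of those with 2.

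At 2 months none of the members was called by limma over cultivars, against 8.18% of entries with 3 cultivars and 1.34% of those with 2, and 1 had an unadjusted p under 0.05, as had 28.5% of entries with 3 cultivars and 18.3% of those with 2. DFR was that gene, with differences of 3.52 (Golden Delicious) and 2.81 (Granny Smith) and a mean of 3.16 (SE 0.353, adjusted p = 0.0514). F3H differed by -6.29 in Golden Delicious, but by -0.47 in Granny Smith and -1.02 in Fuji (mean -2.59, SE 1.85, adjusted p = 0.244), so the mean rests largely on Golden Delicious. LAR1 (-0.37, adjusted p = 0.393) and MdF3H (0.21, adjusted p = 0.805) were not called.

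The courses after harvest were then tested in control and in 1-MCP fruit, with the harvest columns shared by both. Of the members, F3H changed over time in control fruit (adjusted p = 0.00226 by limma's F-test), where 41.7% of entries with 3 cultivars and 14.2% of those with 2 were called, and this was lost without Fuji (0.0528). F3H was 4.55 higher at 2 months than at harvest (SE 0.799, adjusted p = 0.000668 by limma), a contrast called for 29.5% of entries with 3 cultivars. MdF3H (any time, adjusted p = 0.149), DFR (0.499) and LAR1 (0.526) were not called in control fruit. In DFR the control courses of the cultivars ran apart, since Golden Delicious reached 6.42 at day 21 before its 0.33 at 2 months while Granny Smith was already at -0.33 at day 14.

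In 1-MCP fruit, F3H (adjusted p = 0.00210 by limma's F-test) and MdF3H (0.0273) changed over time, against 53.9% of entries with 3 cultivars and 30.1% of those with 2. The call of MdF3H was lost without the filter (0.0513) and without the trend and robust options (0.0562), and that of F3H without Fuji (0.0883). F3H was 1.96 above harvest at 2 months (SE 0.643, adjusted p = 0.0177 by limma), a call lost without Granny Smith (1.06, adjusted p = 0.209) or Fuji (1.69, adjusted p = 0.180). At day 7 it differed from harvest by -1.48 (adjusted p = 0.0683), which was not called, against 35.3% of entries. MdF3H was 1.45 above harvest at 2 months (SE 0.302, adjusted p = 0.00505 by limma), beside 1.24 in control fruit (SE 0.419, adjusted p = 0.0733). At 2 months against harvest, 41.6% of entries with 3 cultivars and 28.9% of those with 2 were called in 1-MCP fruit, and 11.8% of those with 2 in control fruit. LAR1 was lower than at harvest by day 14 (-0.88, adjusted p = 0.0425 by limma) and day 21 (-0.89, adjusted p = 0.0397), contrasts called for 21.9% and 23.7% of entries with 2 cultivars, although its test over all times was not past the threshold (adjusted p = 0.0881). Both LAR1 values lost their call without the filter (0.0702 and 0.0646) and without the trend and robust options (0.0804 and 0.0752). DFR in 1-MCP fruit was not called (any time, adjusted p = 0.175), with 1.64 above harvest at day 14 (adjusted p = 0.0969).

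**Figure D3:**
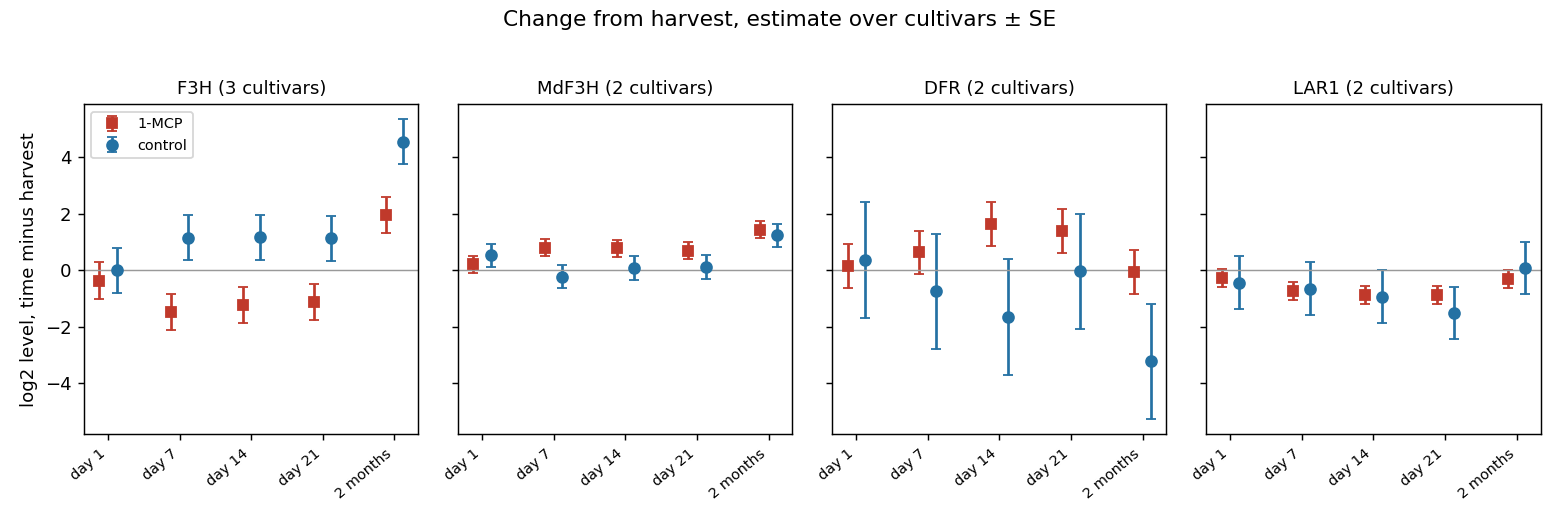
Log2 level minus the harvest level (vertical axis) for each member against time after harvest (horizontal axis), in 1-MCP and control fruit, as the estimate over cultivars with bars of ± SE. F3H of control fruit ends 4.55 above harvest at 2 months in the mean of the 3 cultivars, and 1-MCP fruit 1.96 above it.

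Cultivars were compared over the 11 matched groups. F3H was lower in Fuji than in Golden Delicious (-0.997, SE 0.447, adjusted p = 0.0491 by limma), where 55.7% of entries were called. That call was lost without the filter (adjusted p = 0.0599), with a stricter filter (0.0529), with 4 added to the values (0.0714) and without the trend and robust options (0.0524). F3H differed by -0.50 between Fuji and Granny Smith (adjusted p = 0.317) and by 0.50 between Golden Delicious and Granny Smith (adjusted p = 0.324), and 59.8% of entries were called between Fuji and Granny Smith. Between Golden Delicious and Granny Smith none of the 4 members was called by limma, against 58.9% of entries with 3 cultivars and 57.8% of those with 2, and 1 had an unadjusted p under 0.05, as had 63% and 62.3% of those entries. That was DFR, at 1.36 (SE 0.652, adjusted p = 0.0611), with MdF3H at 0.29 (adjusted p = 0.118) and LAR1 at -0.25 (adjusted p = 0.474).

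The wider list of flavonoid genes held 13 genes of the RefSeq table, of which 8 were analysed here and 5 passed the filter on low values, all 4 members among them. Of the 5, F3H was called as lower, MdF3H as higher and 3 were not called. That is 2 called of 5, beside 34.4% of all entries with 3 cultivars and 26.4% of those with 2. Their median difference over days 7, 14 and 21 was -0.66 in Golden Delicious and 0.72 in Granny Smith, beside 0.02 and 0.03 over all entries. Each median is the value of 1 gene, LAR1 in Golden Delicious and MdF3H in Granny Smith. The 5 genes ran from -3.51 to 0.80 in Golden Delicious and from -1.38 to 3.38 in Granny Smith, so no common shift is read from the medians. UGT71K1, a UDP-glycosyltransferase, was the fifth, with -1.88 in Golden Delicious (SE 0.165, adjusted p = 0.00308 by limma, or 0.0585 without day 14) and 0.19 in Granny Smith (adjusted p = 0.716), and the difference between the cultivars was not called (-2.07, adjusted p = 0.0567). For the branch to anthocyanins, 1 ANS entry and 1 UFGT entry were analysed, and both were barely detected. Entries without a gene name were not searched for further copies of these enzymes. ANS, the anthocyanidin synthase, was at the floor in 28 of 33 columns and at most at -0.67, and UFGT, a flavonoid glucosyltransferase of anthocyanin formation, in 29 of 33 and at most at -0.67. LAR2, a second leucoanthocyanidin reductase, was at the floor in 23 of 33 columns and at most at 0.00.

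Of 8 regulator genes with values, 5 passed the filter and none was called by limma under these rules, against the 34.4% and 26.4% above. With unadjusted p, 1 of them met the rules. In a fit over all columns with additive terms for cultivar and for group (harvest, or time and treatment), 2 were called. In that additive fit 58% of entries with 3 cultivars and 46.6% of those with 2 were called. MYB111, a MYB factor of flavonol genes in Arabidopsis, missed the threshold (-0.32, SE 0.0842, adjusted p = 0.0529). HY5, a light-signalling bZIP factor, differed by -1.10 in Golden Delicious (adjusted p = 0.0137 by limma) and -0.64 in Granny Smith (adjusted p = 0.156). MYB1 differed by 1.78 in Golden Delicious (adjusted p = 0.00930 by limma) and 0.29 in Granny Smith (adjusted p = 0.573). These values are of the entry NM_001301116, whereas MdMYBA, another gene with MYB1 and MYB10 among its names, had no matched entry. BHLH3, a helix-loop-helix partner of MYB factors in anthocyanin control, had a difference of 0.02 for Golden Delicious and of 0.56 for Granny Smith (adjusted p = 0.0305 by limma). TTG1, the last of the 5, differed by -0.10 in Golden Delicious (adjusted p = 0.315 by limma) and -0.26 in Granny Smith (adjusted p = 0.119). In these tests within a cultivar, 42.1% of all entries were called in Golden Delicious and 39.4% in Granny Smith. MYB22 was at the floor in all 22 of its columns, and MYB9 in 31 of 33.

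Correlations between members differed by cultivar, over 11 columns each. DFR and F3H had r = -0.77 in Golden Delicious and -0.34 for Granny Smith, and LAR1 and F3H had 0.73 and 0.21. LAR1 and MdF3H had -0.15 and 0.67, F3H and MdF3H had -0.02 and 0.60, DFR and LAR1 had -0.55 and 0.47, and DFR and MdF3H had -0.08 and 0.25, in the same order of cultivars. Among 278 named entries, the levels most like those of F3H were those of MAN2 (r = 0.83 over 22 columns), ATG3 (0.77 over 33) and the dehydrin entry (0.72 over 33). For MdF3H they were YTP2 (0.80), GBSSIb (0.69) and WHY3 (0.63), for DFR IAA12 (0.84), TCP7 (0.82) and MdSPDS2a (0.75), and for LAR1 GID1a (0.60), FPPS (0.57) and CAMTA1 (0.57), each over 22 columns. These correlations describe columns that share cultivar and normalization, with all fruit of a cultivar taken as 1 lot, and they carry no test.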

How the data were processed

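RNA from fruit cortex was sequenced as non-directional libraries of 100-base reads, per the labels' protocols, so reads of antisense transcripts cannot be told apart. Per the submitters' processing notes, STAR 2.5.1a and HTSeq were used, and the genome build is not given in the sources used here. The deposited values are log2 group means, which the authors name FPKM. Low values (log2 under 2.5) return to means of the log2 of whole numbers, with 0 entered as 0.5, within a relative tolerance of 0.0003, so 97 libraries entered the 33 columns. Column quantiles were not compared here. Depth and replicate spread are unknown, and no interval for counting error was computed. Each table was tied to its cultivar by its sheet name.

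Entries were named through RefSeq's genes of assembly GDT2T_hap1, ignoring version numbers, and 22330 (40.1%) matched. Entries that reached log2 2 in 3 or more columns were kept, 42396 in all, of which 20999 had values in 3 cultivars. The tests were limma's (version 3.58.1, R 4.3.3), with the trend and robust options of eBayes, run over all entries kept, two-sided, with Benjamini-Hochberg adjustment. The trend used the mean level as covariate. A first form used the mean difference, and the change was made after the counts of that form had been seen. All 4 members passed the filter and are named, as are the other flavonoid genes of the list that were tested and the 3 named entries most like each member. Members, lists and rules were chosen with earlier results of these data known. Regulators are described by their counts, and those named among them were chosen after their values were seen. Alternatives changed the filter, the pseudocount, the trend, and the cultivars or days used.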

Additional observations from a re-analysis of the deposited data

Results flagged for a closer look

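LAR1 drew attention because its response to 1-MCP was called as different between cultivars in the main fit, by a test of the difference itself. The difference of the effect over days 7, 14 and 21, Golden Delicious minus Granny Smith, was -1.72 (SE 0.283, adjusted p = 0.0126 by limma over 3 days). All 3 days were lower with 1-MCP in Golden Delicious (-0.82, -0.64 and -0.52) and all 3 higher in Granny Smith (0.66, 0.75 and 1.76). In Granny Smith the levels of LAR1 over these days were 7.75, 7.45 and 7.27 in 1-MCP fruit, against 7.09, 6.70 and 5.51 in control fruit. The adjusted p ran from 0.00396 to 0.352 over the alternatives. The call rests on a variance trend chosen after a first form of the fit had been seen, and that first form gave the 0.352. It was also lost without the filter, without day 14 and without the trend and robust options. Days of 1 cultivar are taken here to share a fruit lot, which the labels do not state. Whether treated and control fruit differed in lot is not given by the labels and was not tested.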

How the results depend on the processing

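No paired analysis was possible because each column is a group mean and carries no replicate number, although the tests do take differences between columns of the same cultivar and day. For the same reason no replicate could be left out. The choice among several rows of a gene gave no alternative, since each member had 1 row. Of 134 alternative values of the main comparisons, 93 kept their direction and side of the threshold, or a count within 1.5 times, and among 482 others 424 did. Values uncalled in the main fit that stayed uncalled are counted as kept, so these numbers do not measure how stable the calls are. The cause was not tested for any change below.

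F3H lost its call with 4 added (-0.98, adjusted p = 0.0521), without Golden Delicious (-1.89) and without Fuji (-2.45). Without a filter, calls were lost for MdF3H (0.80 in Golden Delicious, 0.72 in Granny Smith), DFR in Granny Smith (3.38, adjusted p = 0.146) and LAR1 (Golden Delicious -0.66, Granny Smith 1.06, adjusted p of 0.0526 and 0.159). Without day 14, calls were lost for MdF3H (0.77 in Golden Delicious, 0.82 in Granny Smith) and LAR1 (-0.67 and 1.21). MdF3H in Granny Smith also lost its call without day 7 (0.57) and day 21 (0.77). Without day 21, DFR was 1.05 in Golden Delicious, now past the threshold, and 3.62 in Granny Smith, no longer past it. Without the trend and robust options, DFR (3.38, adjusted p = 0.0529) and LAR1 (1.06, adjusted p = 0.0657) in Granny Smith were lost. LAR1 there was also lost with the trend on the mean difference (1.06, adjusted p = 0.0547). That trend was the first form of the fit, and the trend on the mean level replaced it after the counts of the first form had been seen.

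Signs turned without day 21 for the mean of LAR1 over both cultivars (-0.013, against 0.20) and for UGT71K1 in Granny Smith (-0.22), without day 14 for the MdF3H difference between cultivars (-0.049), and with 4 added for control DFR at day 21 against harvest (0.24), all of them uncalled. The count of flavonoid genes called fell to 1, against 2, without a filter, with 4 added, without Fuji and without day 7, 14 or 21. In the additive fit over all columns 3 of the 4 members were called over days 7, 14 and 21, against 2 in the main comparison. LAR1 was the member not called, and 58% of entries with 3 cultivars and 46.6% of those with 2 were called in that fit. Members called numbered 1 at 2 months with a stricter filter, 1 (F3H, with MdF3H lost) in the course of 1-MCP fruit without a filter or without the trend and robust options, and 1 between cultivars with 4 added. For the difference of the effect the number was 0 without a filter, without day 14, without the trend and robust options or with the trend on the mean difference, and 2 without day 7, when DFR joined LAR1 (-3.56, adjusted p = 0.00205).

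Of all entries with 3 cultivars, 7214 were called, against 3552 without Golden Delicious, 2929 without Granny Smith and 2166 without Fuji. With 2 cultivars 5646 were called, against 483 without a filter, 734 without day 14, 3297 without day 21 and 3481 without the trend and robust options.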
